A study of Mus musculus with 9 samples.

Results

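Hsd11b1 and 6 genes of the steroid hormone response were followed in mouse fibroblasts given SAG, an agonist of Smoothened that turns on Hedgehog signalling. The 7 genes are Hsd11b1, Nr3c1, Vdr, Tsc22d3, Fkbp5, Per1 and Usp2. They were matched by symbol, from a list drawn up with earlier results of these data known, and are 7 of the 30407 features shared by all libraries. The cells were NIH3T3-CG, an established line labelled as embryonic fibroblasts, and RNA was counted in single cells with the 3' v3.1 chemistry of 10x Genomics. Experiment 1 has 3 libraries, at 0, 17 and 30 h of SAG, and its labels do not mention doxycycline (Dox). Experiment 2 has 6 libraries, at 0, 19 and 30 h of SAG, each time once without Dox and once with Dox. What Dox switches on in this line is not in the labels, and neither is whether cultures were separate, so a p-value measures only the spread between these libraries. No library was kept without SAG for 17 to 30 h, so time on SAG and time in culture cannot be told apart. Levels are in CPM, counts per 1000000 counts, over the cells kept in a library, where a count is a unique molecular identifier (UMI) that marks 1 captured RNA molecule.

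Glucocorticoids circulate in an active form (corticosterone in mice) and an inactive keto form, and cells set their own exposure with enzymes of the endoplasmic reticulum. Hsd11b1 encodes the reductase that regenerates the active hormone, using NADPH made by H6pd, and it is a well known fibroblast and fat cell enzyme. The active hormone binds the glucocorticoid receptor, the product of Nr3c1, which is held by an Hsp90 chaperone complex with Fkbp5, moves to the nucleus, induces genes such as Tsc22d3, Fkbp5 and Per1, and lowers inflammatory genes such as Ccl2. Vdr encodes the vitamin D receptor, a nuclear receptor that works with a retinoid X receptor partner. Usp2 encodes a deubiquitinase known both as a clock output gene and as a gene that glucocorticoids and other hormones can raise.

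Between 571 and 6520 cells per library were kept, with 19407468 to 105444824 UMIs. The library of Experiment 2 at 19 h without Dox stood apart in depth, with a median of 8025 UMIs per cell against 28335 to 48188 in the other 8. In 3 libraries of Experiment 2 (30 h without Dox, 19 h and 30 h with Dox) 17.87% to 19.69% of cells had under 1% mitochondrial UMIs, against 0.43% to 1.41% elsewhere. Summed immediate early genes reached 1194 CPM in Experiment 1 at 0 h and 469.5 to 582.6 CPM in the other 8 libraries. All 9 fibroblast markers were present, summing to 5725 to 8238 CPM, while 5 adipocyte markers summed to 0.327 to 5.47 CPM, with Cidec and Lep at 0 in every library, and 5 macrophage markers to 10.2 to 16.8 CPM, mostly Lyz2. Summed levels were 125 to 496 CPM for smooth muscle (mostly Acta2), 3.02 to 5.23 CPM for skeletal muscle (Myod1 and Myog at 0), 3.46 to 5.14 CPM for neural, 0.309 to 1.49 CPM for endothelial and 0.0807 to 0.551 CPM for epithelial markers. The SAG labels were checked with Gli1, the classic Hedgehog target, which was 6.46 higher on the log2 scale at 30 h than at 0 h (SE 0.53, adjusted p = 3.71e-09, edgeR).

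In the fit over both experiments, Hsd11b1 had the largest SAG difference of the 7 genes. Without Dox, its level in Experiment 1 was 0.794 CPM at 0 h, 5.02 CPM at 17 h and 1.66 CPM at 30 h. In Experiment 2 it was 0.289 CPM at 0 h, 1.21 CPM at 19 h and 3.40 CPM at 30 h. All 4 libraries with SAG lay above both libraries at 0 h, but the highest point came at 17 h in Experiment 1 and at 30 h in Experiment 2. With Dox the levels were 0.135, 1.74 and 4.06 CPM at 0, 19 and 30 h, in the same order as without Dox in that experiment. These levels rest on few molecules: 5 to 27 UMIs in the 3 libraries at 0 h and 43 to 362 UMIs in the 6 libraries with SAG.

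**Figure D1:**
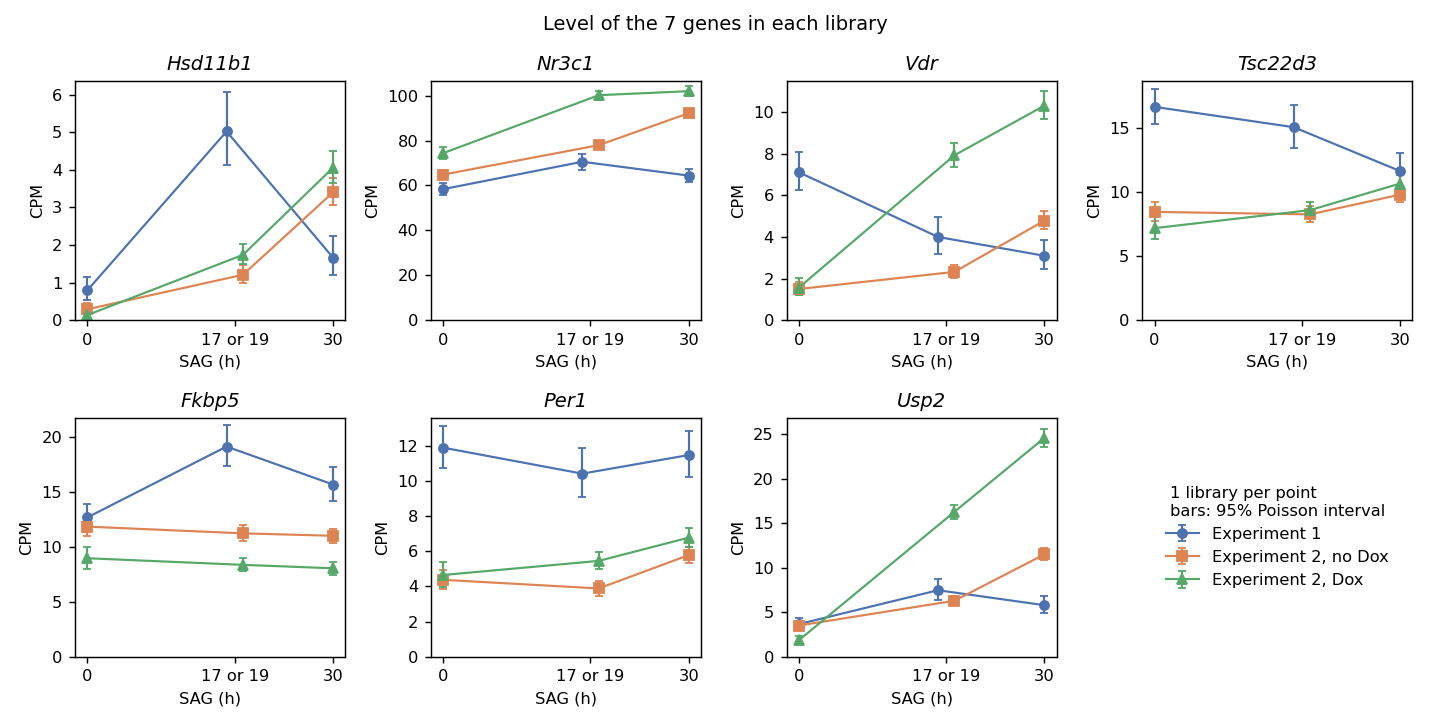
Level in CPM (vertical axis, linear, from 0) against hours of SAG (horizontal axis) for each of the 7 genes, with 1 library per point, lines joining the libraries of an experiment and Dox state, and bars for the 95% Poisson interval of the UMI count. Hsd11b1 is lowest at 0 h in every line and highest at 17 h in Experiment 1 and at 30 h in both lines of Experiment 2.

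The mean level of Hsd11b1 without Dox was 0.541 ± 0.357 CPM at 0 h, 3.12 ± 2.70 CPM at 17 to 19 h and 2.53 ± 1.23 CPM at 30 h (SD, n = 2 libraries each). In edgeR's quasi-likelihood test with the experiment as a block, it rose by 2.58 on the log2 scale at 30 h (SE 0.49, adjusted p = 0.00724) and by 2.42 at 17 to 19 h (SE 0.49, adjusted p = 0.0298). It ranked 23 of 14354 genes by p at 30 h. At 30 h, 2 of the 7 genes were called (Hsd11b1 and Usp2, both higher), where 0.446% of all genes tested were called. At 17 to 19 h 1 of the 7 was called, Hsd11b1, against 0.111% of all genes. The median difference of the 7 genes at 30 h was 0.26, beside -0.01 for all genes. Between 17 to 19 h and 30 h no direction held for Hsd11b1 (0.17, SE 0.45), and edgeR called 0 of the 7 genes, with 0 at an unadjusted p under 0.05 and 0 by DESeq2, where 0.00697% of all genes were called.

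The 30 h call of Hsd11b1 ended without the block (2.26, adjusted p = 1, edgeR) and without the library of Experiment 2 at 30 h (0.91, adjusted p = 1), while DESeq2 kept it (2.55, adjusted p = 0.0358). At 17 to 19 h the call ended with DESeq2 (2.44, adjusted p = 0.128), with the edgeR fit under RLE scaling (2.41, adjusted p = 0.122) and without the library of Experiment 1 at 17 h (1.23, adjusted p = 1), and with no block (2.53, adjusted p = 1, edgeR). With only cells of at least 10000 UMIs, which evens out the shallow 19 h library, the differences were 2.63 at 30 h and 2.45 at 17 to 19 h, both called by edgeR.

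**Figure D2:**
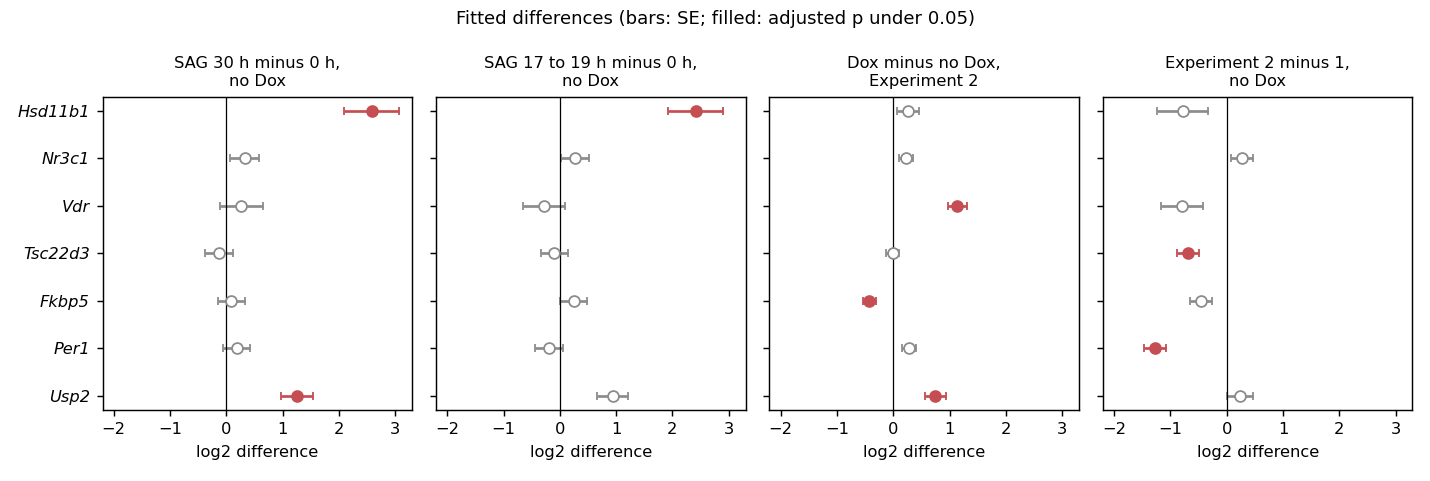
Fitted log2 difference (horizontal axis) of each of the 7 genes (vertical axis) in 4 comparisons, with bars for the standard error and filled red points for an adjusted p under 0.05 in edgeR. Hsd11b1 stands at 2.58 and 2.42 in the SAG panels, and the called genes differ between the SAG, Dox and experiment panels.

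Set against its own 0 h library, Hsd11b1 was 6.33 times as high at 17 h in Experiment 1 (95% counting interval 4.12 to 10.0) and 2.10 times as high at 30 h (1.27 to 3.53). From 17 h to 30 h its ratio there was 0.331 (0.227 to 0.475), so the interval lay below 1. In Experiment 2 without Dox the ratios to 0 h were 4.18 at 19 h (2.49 to 7.45) and 11.8 at 30 h (7.26 to 20.5), and the 30 h level was 2.82 times that at 19 h (2.26 to 3.55). The course after 17 to 19 h thus ran down in Experiment 1 and up in Experiment 2. Each of these 2 counting intervals excluded 1, with 1 library per point and no replicate check of either course. Such an interval takes UMIs as independent. In Experiment 1 the 5 highest cells held 37.0% of the UMIs at 17 h and 55.8% at 30 h, so the interval is too narrow there. With Dox the ratios were 12.9 at 19 h (5.43 to 40.3) and 30.2 at 30 h (12.8 to 93.4), the wide intervals coming from the 5 UMIs at 0 h.

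The gene lies on chromosome 1 at 193221634 to 193264075 of GRCm38, on the minus strand (ENSMUSG00000016194). On the opposite strand it is overlapped by Lamb3, a laminin subunit gene, and by the antisense RNA gene 4930570N18Rik, and the sources used here do not say if reads were assigned by strand. Lamb3 had 702 UMIs in all 9 libraries and ran at 0.558, 1.12 and 0.657 CPM in Experiment 1. Its levels in Experiment 2 were 1.07, 1.11 and 1.42 CPM without Dox, then 0.834, 1.40 and 1.88 CPM with Dox. Like Hsd11b1, Lamb3 was lowest at 0 h in every line, and highest at 17 h in Experiment 1 and at 30 h in both lines of Experiment 2. Its range over the libraries was narrower than that of Hsd11b1, and 4930570N18Rik had 24 UMIs in all. The part of Lamb3 reads in the Hsd11b1 counts, or the reverse, was not tested.

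Few cells held the transcript. Cells with at least 10000 UMIs were thinned to that depth, which left out 1.7% to 10.8% of cells in 8 libraries and 60% in Experiment 2 at 19 h without Dox. At this depth a Hsd11b1 UMI was found in 1.09% of cells at 0 h in Experiment 1 (95% Clopper-Pearson interval 0.524 to 2.0), in 4.24% at 17 h (2.70 to 6.29) and in 1.43% at 30 h (0.620 to 2.80). In Experiment 2 without Dox the shares were 0.188% (0.0612 to 0.439), 0.963% (0.624 to 1.42) and 3.52% (2.76 to 4.41) at 0, 19 and 30 h. With Dox they were 0.0756% (0.00191 to 0.420), 1.81% (1.26 to 2.51) and 4.12% (3.18 to 5.24). The shares followed the same order as the levels in each experiment. In Experiment 1 the interval of 30 h overlapped that of 0 h and, narrowly, that of 17 h. At levels this low the share follows the mean level, so it cannot tell more cells with the transcript from more UMIs per cell. Without thinning, 2.25%, 7.71% and 3.25% of cells in Experiment 1 held it, and in Experiment 2 the shares without Dox were 0.571%, 1.43% and 8.29%, those with Dox 0.367%, 5.77% and 11.9%. The labels name a cell line and no other cell type from which the level of free RNA could be read, and it was not estimated. The 0 h share is therefore only the lowest one measured in each experiment and Dox state, and intervals cover counting error only.

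Some cells held many copies. The highest count in 1 cell was 12 UMIs in Experiment 1 at 17 h, 15 UMIs in Experiment 2 at 30 h without Dox and 12 UMIs with Dox, against 1 to 3 UMIs in the 3 libraries at 0 h. Cells with the transcript held 1.0 to 1.29 UMIs on average at 0 h and 1.94 to 2.26 UMIs at 30 h, at full depth. In Experiment 2 at 19 h the highest count was 2 UMIs without Dox and 5 UMIs with Dox, with averages of 1.11 and 1.44. Median depth was 28335 to 29327 UMIs per cell at 0 h and 40905 to 48188 at 30 h, and these counts are not corrected for it. In Experiment 1 at 17 h the 5 highest cells held 37.0% of the 108 Hsd11b1 UMIs, and in Experiment 1 at 30 h 55.8% of the 43 UMIs. In Experiment 2 at 30 h the 5 highest cells held 14.1% without Dox and 13.0% with Dox. The levels of Experiment 1 therefore leaned on fewer cells with the transcript, 44 of 571 kept at 17 h and 19 of 585 at 30 h. In Experiment 2 at 30 h these were 179 of 2159 without Dox and 187 of 1578 with Dox, so fewer cells were also sampled in Experiment 1.

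**Figure D3:**
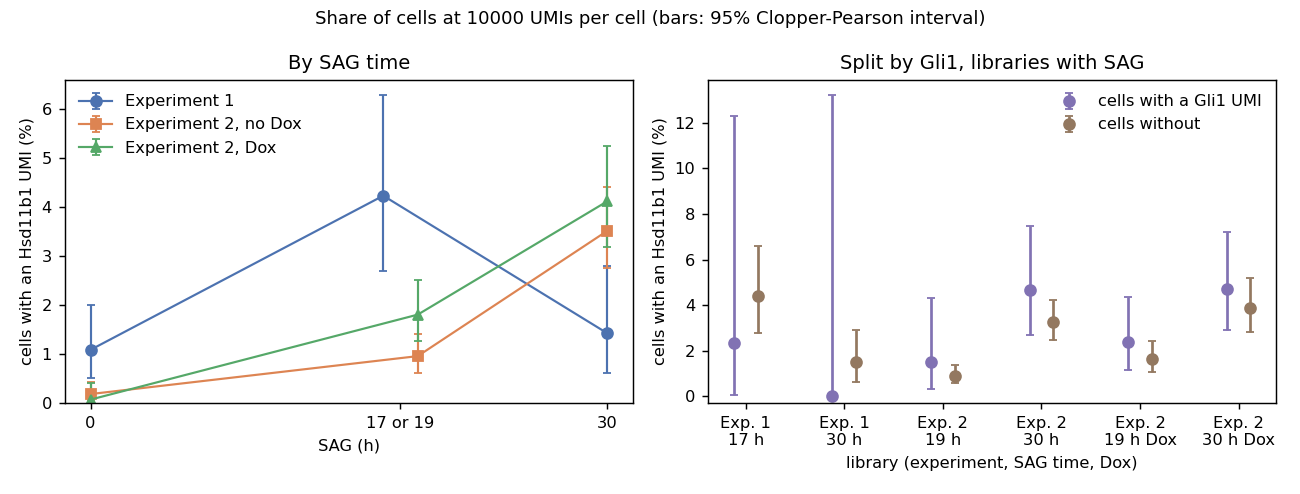
Share of cells with at least 1 Hsd11b1 UMI in percent (vertical axes), after thinning each cell to 10000 UMIs, with 95% Clopper-Pearson intervals: by hours of SAG at left, and at right split by the presence of a Gli1 UMI in the 6 libraries with SAG. The share peaks at 4.24% at 17 h in Experiment 1 and at 3.52% and 4.12% at 30 h in Experiment 2, and the intervals of cells with and without Gli1 overlap in each library.

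Cells with a Gli1 UMI were compared with cells without one in the 6 libraries with SAG, at 10000 UMIs per cell. The share with Hsd11b1 was 2.33% against 4.4% in Experiment 1 at 17 h, and 0 of 26 cells against 1.5% at 30 h. It was 1.49% against 0.918% in Experiment 2 at 19 h, 4.67% against 3.29% at 30 h, 2.40% against 1.65% at 19 h with Dox and 4.73% against 3.89% at 30 h with Dox. Cells with Gli1 had the higher share in 4 of 6 libraries, all of Experiment 2. The mean difference was -0.00407 percentage points (SD 1.42), and no difference was detected (exact sign-flip permutation test over libraries, two-sided, p = 1). Its sign changed to 0.325 points when cells were thinned to 5000 UMIs. In Experiment 1, 43 cells at 17 h and 26 cells at 30 h held Gli1, so the split there rests on few cells.

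The 3 libraries with many cells of under 1% mitochondrial UMIs were read in both classes of cells. Hsd11b1 was at 2.78 CPM in those cells and 3.48 CPM in the cells of 1% to 10% in Experiment 2 at 30 h without Dox, at 2.31 and 2.01 CPM at 19 h with Dox, and at 6.83 and 4.43 CPM at 30 h with Dox, scaled by library totals. The 30 h difference was 2.59 on the log2 scale when only cells of 1% to 10% were used, and edgeR still called it.

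Across the 9 libraries, the genes most like Hsd11b1 by Pearson's r of log2 CPM, among 8757 genes of at least 5 CPM on average, were Foxs1 (0.97), Skil (0.96), Msh6 (0.94), Rabep1 (0.93) and Rrp12 (0.93). Gli1 had an r of 0.87, Usp2 0.83, Ptch1 (the Hedgehog receptor and target gene) 0.80 and Vdr 0.69. These values describe 9 points that share time, Dox and experiment. Among single cells, the median r over 6 libraries was at most 0.105, for Igfbp7, followed by Col3a1 (0.0977), Ebf1 (0.0879), Adam23 (0.0870) and Aebp1 (0.0855), and Gli1 stood at rank 726 of 8831 genes (0.0230). Values this low in sparse counts are given as a description only.

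Of the steroid-metabolising enzymes listed, 14 were measured, and edgeR called 1 higher and 1 lower at 30 h, with a list median of 0.19. The higher one was Hsd11b1. The lower one was Akr1c18, which inactivates progesterone (-1.49, SE 0.35, adjusted p = 0.0482, edgeR). H6pd, which supplies NADPH to the Hsd11b1 enzyme, ranged from 5.48 to 7.50 CPM over the 9 libraries, and its 30 h difference did not pass the test (0.16, adjusted p = 0.866).

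Nr3c1, the glucocorticoid receptor gene (chromosome 18, 39410545 to 39519421, minus strand), was present throughout. It measured 58.3, 70.6 and 64.4 CPM at 0, 17 and 30 h in Experiment 1, and 64.8, 77.9 and 92.2 CPM at 0, 19 and 30 h in Experiment 2 without Dox. With Dox it measured 74.4, 100.2 and 102.0 CPM. In every line the libraries with SAG lay above their own 0 h library, but the ranges of 0 h and 30 h without Dox overlapped across experiments. The 30 h difference was 0.33 (SE 0.26, adjusted p = 0.680, edgeR) and did not pass the test. At 10000 UMIs per cell, 34.1% to 65.2% of cells held a Nr3c1 UMI, the lowest share being in Experiment 2 at 0 h without Dox.

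Genes of the proteins that fold and serve this receptor gave no call with SAG. None of 15 chaperone genes was called at 30 h (0 at an unadjusted p under 0.05 in edgeR, 0 called by DESeq2), and the lowest p belonged to Cdc37 (0.46, adjusted p = 0.588), an Hsp90 cochaperone for kinases. Among 12 nuclear receptor coregulators 0 were called by edgeR or DESeq2, with 3 higher at an unadjusted p under 0.05 by each. The coregulator median at 30 h against 0 h was 0.07 in Experiment 1, 0.53 in Experiment 2 without Dox and 0.33 with Dox, beside -0.01, 0.01 and 0.02 for all genes. Smarca4, a chromatin remodelling ATPase, stood at 0.78 (adjusted p = 0.228, edgeR).

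Vdr (chromosome 15, 97854425 to 97910630, minus strand) ran in opposite directions in the experiments. In Experiment 1 it measured 7.11 CPM at 0 h, 4.0 CPM at 17 h and 3.09 CPM at 30 h, so the 30 h level was 0.435 of that at 0 h. In Experiment 2 without Dox it measured 1.49, 2.32 and 4.79 CPM, and the 30 h level was 3.21 times that at 0 h. With Dox it measured 1.56, 7.93 and 10.3 CPM, 6.61 times as high at 30 h as at 0 h. The 0 h level of Experiment 1 was above every library of Experiment 2 without Dox, and that library is the one with the highest summed immediate early genes; the part of that in the Vdr values was not tested. Over both experiments the 30 h difference was 0.26 (SE 0.38, adjusted p = 0.850, edgeR), and leaving out single libraries moved it from -0.88 to 1.42.

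The share of cells with Vdr, at 10000 UMIs, followed the levels: 6.43%, 4.79% and 2.68% in Experiment 1. In Experiment 2 it was 0.979%, 1.81% and 4.59% without Dox, then 1.66%, 7.86% and 10.0% with Dox. Of 5 receptors and partners measured (of 10 listed), 0 were called at 30 h by edgeR or DESeq2, with 1 at an unadjusted p under 0.05 by each. In edgeR this was Rxra, a partner of the vitamin D receptor (0.58, adjusted p = 0.385). Of 16 genes of vitamin D metabolism and response 7 were measured and 0 were called by edgeR or DESeq2, with 3 lower at an unadjusted p under 0.05 in edgeR and 2 in DESeq2. S100g, a calcium-binding protein gene known as a vitamin D target, stood at -1.04 (adjusted p = 0.0914, edgeR), and Spp1, the osteopontin gene, at -0.88 (adjusted p = 0.25). Cyp24a1, the vitamin D catabolic gene and its best known target, had 1 UMI over all 9 libraries.

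Promoter windows of the receptor targets were read from the RefSeq table on GRCm38.p6, in which 6 of the 7 genes had an entry, with 9 windows in all. In the 250 bases before each start, both strands were searched for the glucocorticoid half-site AGAACA, the vitamin D half-site AGGTCA, the E-box CACGTG that clock proteins bind and the GLI core ACCACCCA. Of all 32851 windows, 16.1% held the first, 14.0% the second, 6.02% the third and 1.28% the last, and 0.00913% held a full glucocorticoid site, 2 half-sites as an inverted repeat with 3 bases between. Tsc22d3 held the half-site, Fkbp5 the E-box and Per1 the E-box and AGGTCA, each in 1 window. The 60 bases around these letters are shown on the gene's strand with the matches in capitals, TGTTCT being AGAACA and TGACCT being AGGTCA on the other strand.
Tsc22d3, chrX:140600675-140600734, minus strand: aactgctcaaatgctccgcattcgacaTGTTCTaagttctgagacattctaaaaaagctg
Fkbp5, chr17:28486286-28486345, minus strand: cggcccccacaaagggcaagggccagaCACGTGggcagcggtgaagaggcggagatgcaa
Per1, chr11:69098770-69098829, plus strand: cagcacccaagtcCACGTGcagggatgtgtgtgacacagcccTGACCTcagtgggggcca
None of the letters searched was found in the windows of Hsd11b1, Vdr or Usp2. A match describes the letters only and does not show that a factor binds there.

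Tsc22d3 encodes GILZ, a leucine zipper protein that carries part of the anti-inflammatory action of glucocorticoids, and is a common reporter of the receptor (chromosome X, 140539528 to 140600659, minus strand). It measured 16.7, 15.1 and 11.6 CPM at 0, 17 and 30 h in Experiment 1. Experiment 2 had 8.45, 8.26 and 9.80 CPM without Dox, then 7.18, 8.59 and 10.7 CPM with Dox. The ranges of 0 h and 30 h overlapped, and the 30 h difference was -0.14 (SE 0.25, adjusted p = 0.893, edgeR). Its sign changed to 0.08 under scaling by library totals alone.

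Fkbp5 encodes a chaperone that lowers the hormone affinity of the receptor and is itself induced by it (chromosome 17, 28399094 to 28517527, minus strand). In Experiment 1 it measured 12.7, 19.1 and 15.7 CPM, and in Experiment 2 without Dox 11.8, 11.2 and 11 CPM. With Dox it measured 8.96, 8.36 and 8.05 CPM, below each library without Dox. The libraries with SAG were above 0 h in Experiment 1 and slightly below it in Experiment 2, and over both the 30 h difference was 0.09 (SE 0.24, adjusted p = 0.934, edgeR). The orders by SAG and by Dox in Experiment 2 changed with the scaling. By library totals alone, Fkbp5 there measured 8.21, 9.13 and 10.85 CPM without Dox. With Dox it then measured 8.05, 9.91 and 9.48 CPM, so the libraries with SAG lay above 0 h.

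Per1, a repressor of the circadian clock that glucocorticoids induce quickly (chromosome 11, 69095217 to 69109960, plus strand), measured 11.9, 10.4 and 11.5 CPM in Experiment 1. In Experiment 2 it measured 4.38, 3.89 and 5.79 CPM without Dox and 4.65, 5.46 and 6.78 CPM with Dox. Every library of Experiment 1 lay above every library of Experiment 2, while the order of the SAG times differed between the experiments. The 30 h difference was 0.18 (SE 0.25, adjusted p = 0.835, edgeR), and it was -0.02 with cells of up to 20% mitochondrial UMIs.

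These 3 genes were more widely detected than Hsd11b1, at 10000 UMIs per cell. Tsc22d3 was found in 12.5% to 17.1% of cells in Experiment 1 and 5.61% to 13.2% in Experiment 2. Fkbp5 was found in 13.7% to 20.1% and 6.44% to 9.18%, and Per1 in 11.1% to 12.9% and 2.90% to 8.63%. In Experiment 2 the Tsc22d3 share was 5.61%, 7.16% and 8.94% without Dox at 0, 19 and 30 h. With Dox it was 5.97%, 9.61% and 13.2%. The Per1 share there was 2.90%, 3.04% and 5.03% without Dox, then 3.704%, 6.56% and 8.63% with Dox. In Experiment 1 both were lower at 30 h than at 0 h, Tsc22d3 at 12.5% against 16.1% and Per1 at 11.1% against 12.3%. These shares use a fixed depth and no TMM factors. Split by Gli1, the share of cells with Per1 was higher in cells with Gli1 in 6 of 6 libraries, by 1.76 percentage points on average (SD 1.11, exact sign-flip permutation test, two-sided, p = 0.03125, the smallest that 6 libraries can give). Adjusted over the 7 genes by Benjamini-Hochberg, that exact p became 0.219, and at 5000 UMIs per cell it held in 4 of 6 libraries.

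A wider list held 32 glucocorticoid target genes, Tsc22d3, Fkbp5, Per1 and Usp2 among them. Of 25 measured, 1 was called higher at 30 h by edgeR, Usp2, and 0 lower, with 3 higher and 8 lower at an unadjusted p under 0.05, and DESeq2 called 0. The list median was -0.24, beside -0.01 for all genes. At 17 to 19 h 0 were called by edgeR or DESeq2, with 1 higher and 2 lower at an unadjusted p under 0.05 by each.

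Of 10 genes measured (of 15 listed) that glucocorticoids are known to lower, 3 fell at 30 h and 0 rose, where 0.307% of all genes were called lower. This list, like the others, was drawn up with earlier results of these data known. The share of all genes beside it is therefore a description and not a test. The list median was -1.41, beside -0.01 for all genes. The 3 were Ccl2, a monocyte chemokine (-1.95, SE 0.27, adjusted p = 0.000106, edgeR), and the neutrophil chemokines Cxcl1 (-2.30, adjusted p = 0.00304) and Cxcl5 (-1.55, adjusted p = 0.0137). All 10 values were below 0. Ccl2 measured 82.2, 31.8 and 27.7 CPM at 0, 17 and 30 h in Experiment 1. In Experiment 2 it measured 84.6, 36.0 and 16.2 CPM without Dox, then 178.7, 32.0 and 25.7 CPM with Dox, so each 0 h library lay above every library with SAG. DESeq2 called 1 of the 10, and the count was 0 without the library of Experiment 2 at 30 h, 1 without Experiment 1 at 30 h, 0 without the block and 3 of 9 without Experiment 1 at 0 h. At 17 to 19 h 2 fell, Cxcl5 (-1.76, adjusted p = 0.0103, edgeR) and Ccl2 (-1.29, adjusted p = 0.0313, edgeR). Of the 20 immediate early genes 0 were called at 30 h by edgeR or DESeq2, with 9 lower and 1 higher at an unadjusted p under 0.05 in edgeR, and 9 were called lower without Experiment 2 at 0 h, where the high 0 h library of Experiment 1 alone carries the comparison.

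**Figure D4:**
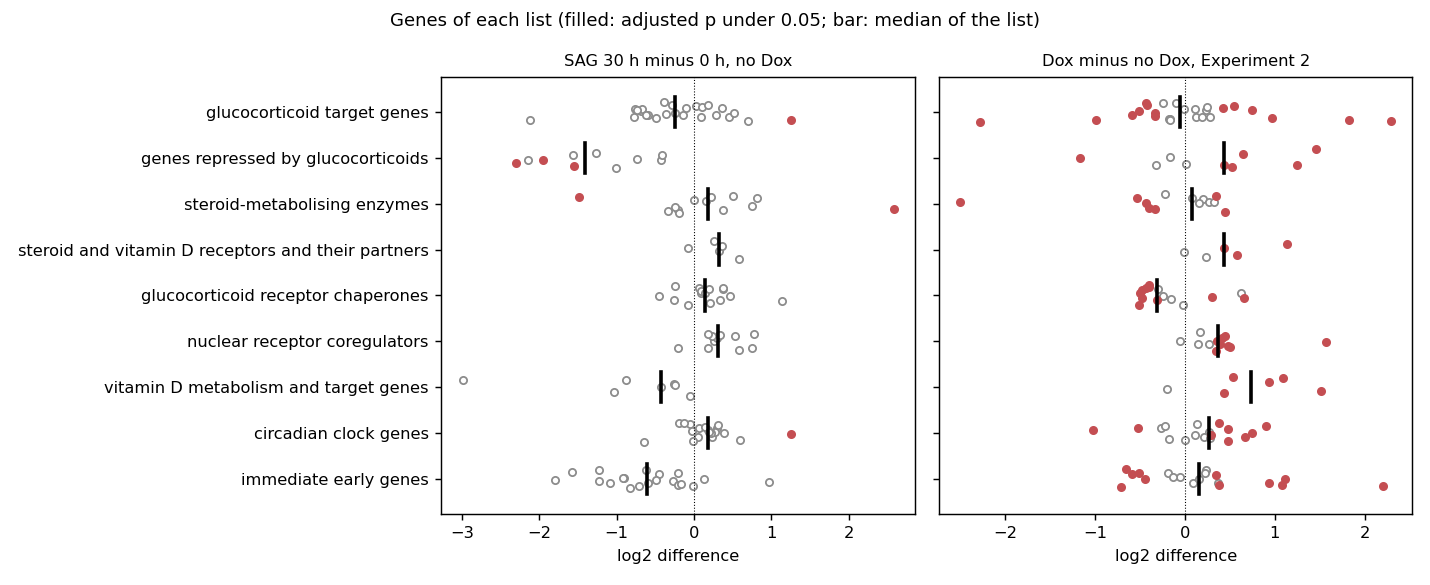
Fitted log2 difference (horizontal axis) of each measured gene of 9 lists (vertical axis), SAG 30 h minus 0 h without Dox at left and Dox minus no Dox in Experiment 2 at right, with filled red points for an adjusted p under 0.05 in edgeR and a black bar for the list's median. At 30 h the 10 genes repressed by glucocorticoids all lie below 0 (median -1.41), while the 25 target genes lie on both sides (median -0.24).

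Usp2 (chromosome 9, 44067021 to 44095627, plus strand) was the other gene of the set called after SAG. It measured 3.67, 7.49 and 5.80 CPM at 0, 17 and 30 h in Experiment 1 and 3.51, 6.30 and 11.5 CPM in Experiment 2 without Dox. With Dox it measured 1.86, 16.3 and 24.6 CPM, the lowest and the highest levels of the 9 libraries. All libraries with SAG lay above all libraries at 0 h. It rose by 1.26 on the log2 scale at 30 h (SE 0.28, adjusted p = 0.0307, edgeR), and at 17 to 19 h the difference was 0.94 (SE 0.28, adjusted p = 0.563). The 30 h call ended with DESeq2 (1.22, adjusted p = 0.205), with RLE factors (1.23, adjusted p = 0.0723), without the block (1.27, adjusted p = 1, edgeR) and without either Experiment 2 library without Dox at 0 h (1.02) or 30 h (0.62). Without Experiment 1 at 0 h it was also called at 17 to 19 h (1.15).

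As for Hsd11b1, Usp2 was highest at 17 h in Experiment 1 and at 30 h in Experiment 2. Its ratio to 0 h at 30 h was 1.58 in Experiment 1, 3.28 in Experiment 2 without Dox (95% counting interval 2.83 to 3.82) and 13.3 with Dox (10.4 to 17.1). The share of cells with a Usp2 UMI at 10000 UMIs was 3.6%, 10.5% and 6.98% in Experiment 1. The shares in Experiment 2 were 2.37%, 5.12% and 10.5% without Dox, then 1.66%, 16.5% and 22.1% with Dox, so the Dox libraries with SAG held the largest shares. Of the genes annotated across it on the opposite strand, Gm49380 had 145 UMIs and Gm39325 had 2 UMIs in all 9 libraries. Of 19 clock genes measured, Usp2 was the only 1 called at 30 h by edgeR, and DESeq2 called 0, with 1 at an unadjusted p under 0.05. At 17 to 19 h edgeR and DESeq2 called 0 of the 19, with 3 higher at an unadjusted p under 0.05 by each, led by the clock repressor Bhlhe41 (0.99, adjusted p = 0.225, edgeR).

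Dox went with higher Vdr and Usp2 and lower Fkbp5. In the 6 libraries of Experiment 2, with SAG time in the model, Vdr was 1.14 higher on the log2 scale with Dox (SE 0.17, adjusted p = 5.05e-07, edgeR), Usp2 0.75 higher (SE 0.18, adjusted p = 0.00128) and Fkbp5 0.43 lower (SE 0.11, adjusted p = 0.00287). These are 3 of the 7 genes, where 38.4% of all 13645 genes tested were called, so the count is near the background. Hsd11b1 differed by 0.26 (SE 0.19, adjusted p = 0.277, edgeR), Tsc22d3 by -0.01, Per1 by 0.27 and Nr3c1 by 0.23, none past the test. The Vdr and Usp2 calls ended with DESeq2 (0.98, adjusted p = 0.0983, and 0.53, adjusted p = 0.585), and the Usp2 call also ended without either 19 h library (0.46 and 0.44) and stood at 1.23 without either 0 h library. Scaling by library totals alone put the median of all genes at 0.41, against 0.01 with TMM factors, called 6 of the 7 genes higher and ended the Fkbp5 call (-0.04, adjusted p = 0.863, edgeR).

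**Figure D5:**
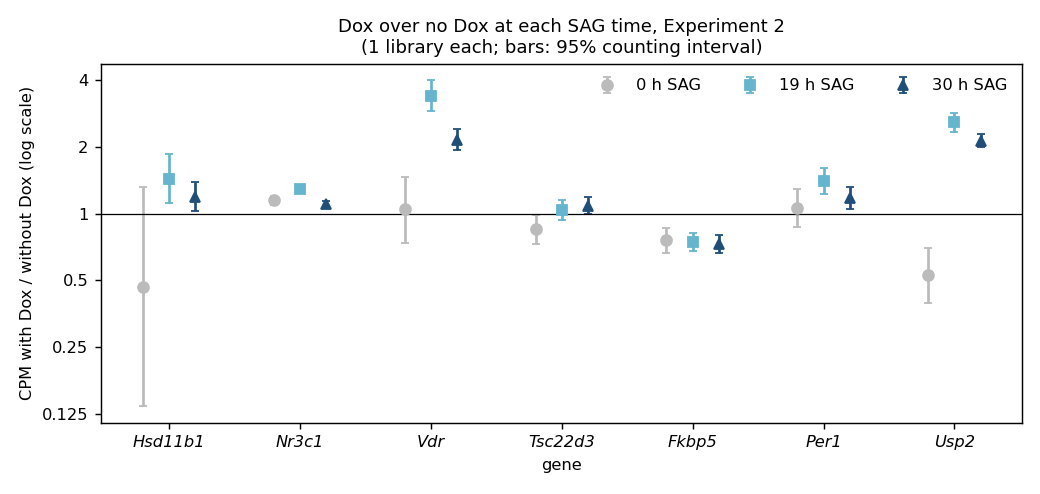
Ratio of CPM with Dox to CPM without Dox (vertical axis, log scale) for each of the 7 genes (horizontal axis) at 0, 19 and 30 h of SAG in Experiment 2, with 1 library on each side and bars for the 95% counting interval. Vdr and Usp2 lie above 2 at 19 and 30 h but not at 0 h, and Fkbp5 lies between 0.732 and 0.757 at all 3 times. The ratios use TMM factors.

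The Dox ratios were also taken at each SAG time, with 1 library on each side. Vdr was 1.05 times as high with Dox at 0 h, 3.42 times at 19 h (95% counting interval 2.92 to 4.02) and 2.16 times at 30 h (1.93 to 2.41). Usp2 was 0.528 times as high with Dox at 0 h (0.396 to 0.697), 2.59 times at 19 h (2.34 to 2.86) and 2.14 times at 30 h (1.99 to 2.30), so its ratio crossed 1. By library totals alone, Usp2 at 0 h was at 1.67 CPM with Dox and 2.44 CPM without, and Vdr at 1.40 and 1.04 CPM. Fkbp5 held at 0.757, 0.745 and 0.732 with TMM factors. The share of cells with Fkbp5 at 10000 UMIs was not lower with Dox at every time. It was 6.88% with Dox against 6.44% without at 0 h, 8.68% against 7.59% at 19 h and 8.11% against 9.18% at 30 h. Hsd11b1 had ratios of 0.466 (0.135 to 1.32), 1.44 (1.12 to 1.86) and 1.19 (1.03 to 1.38), while those of Nr3c1, Tsc22d3 and Per1 ran from 0.850 to 1.40.

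Whether the SAG response differed with Dox, against the response without Dox over both experiments, was tested directly. Experiment 1 has no Dox library, so differences between the experiments enter these values. Within Experiment 2 alone, the log2 differences with Dox at 0 h and 30 h were -0.91 and 1.09 for Usp2. They were 0.06 and 1.10 for Vdr, and -0.94 and 0.25 for Hsd11b1, with 1 library on each side. At 30 h edgeR called 0 of the 7 genes and 0.0% of all genes, with 3 of the 7 at an unadjusted p under 0.05, and DESeq2 called 0 of the 7. Usp2 had the lowest p of all 14354 genes (2.47, SE 0.49, adjusted p = 0.160, edgeR), Vdr ranked 7 (2.46, SE 0.66, adjusted p = 1) and Hsd11b1 stood at 2.31 (SE 1.02, adjusted p = 1). At 17 to 19 h edgeR called 0 of the 7 and 0.0% of all genes, with 2 of the 7 at an unadjusted p under 0.05, Usp2 (2.20, SE 0.49, adjusted p = 0.723) and Vdr (2.62, SE 0.66, adjusted p = 1), and DESeq2 called 0. With no filter on low counts, edgeR called both genes at 30 h and at 17 to 19 h, Usp2 at 30 h with 2.48 and an adjusted p of 0.000979. With the filter, Usp2 passed at 30 h when the 0 h library of Experiment 1 (2.26) or the 0 h (2.70) or 30 h (3.07) library of Experiment 2 without Dox was left out. Without that 0 h library of Experiment 2, Vdr passed too, at 30 h (3.49, adjusted p = 1.3e-09, edgeR) and at 17 to 19 h (3.55, adjusted p = 2.6e-10), as did Usp2 at 17 to 19 h (2.41). Without Experiment 1 at 0 h or at 30 h the 30 h value of Vdr was 1.31 or 1.47.

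Among other genes of the pathway, calls with Dox went in both directions, where 19.2% of all genes were called higher and 19.2% lower. Of 15 chaperones 8 were lower and 2 higher, among them Hsp90aa1, the inducible cytosolic Hsp90 (-0.50, adjusted p = 0.00393, edgeR), Ppid, a cyclophilin of the receptor complex (-0.52), and Hspa1b, an inducible Hsp70 gene (0.66). Of 12 coregulators 8 were higher and 0 lower, led by the coactivator gene Ppargc1a (1.57), and of 6 vitamin D genes 5 were higher, among them Thbd, the thrombomodulin gene (0.94), and Lrp5, a Wnt coreceptor gene (1.09). Of 26 glucocorticoid target genes 6 were higher and 8 lower, which is near the background, with Cebpd, a transcription factor gene, at 0.97 and the metallothionein gene Mt2 at -0.99. The chaperone direction flipped under scaling by library totals, where 4 were higher and 0 lower, and the target genes went to 13 higher and 2 lower. Without either 0 h library 2 chaperones were called lower, and without either 30 h library 4. Coregulators called higher numbered 3 without the 19 h library with Dox, 5 without that without Dox and 4 without either 0 h library, and vitamin D genes called higher numbered 3 without either 30 h library.

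Between the experiments, without Dox and with SAG time in the model, Per1 was 1.28 lower in Experiment 2 on the log2 scale (log2 difference -1.28, SE 0.19, adjusted p = 7.5e-05, edgeR) and Tsc22d3 was 0.69 lower (-0.69, SE 0.20, adjusted p = 0.00919). They are 2 of the 7 genes, where 40.5% of all 13015 genes were called. Per1 was called in every alternative run, from -1.74 to -1.03, while the Tsc22d3 call ended without either library of 17 to 19 h (-0.61 and -0.60). Fkbp5 (-0.45, adjusted p = 0.0665, edgeR), Hsd11b1 (-0.78, adjusted p = 0.180), Vdr (-0.79, adjusted p = 0.0976), Nr3c1 (0.28) and Usp2 (0.24) did not pass the test. Vdr passed with library totals (-1.25), no filter (-0.78), cells of up to 20% mitochondrial UMIs (-1.47) and without the 30 h library of Experiment 1 (-1.52) or 2 (-1.49), and stood at -0.06 without either 0 h library. Hsd11b1 passed without the 30 h library of Experiment 1 (-1.84) or 2 (-1.81), and stood at -0.04 and -0.00 without the 17 h or the 19 h library. The experiments differ in software version and depth, and those cannot be told apart from the cultures.

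Of 19 clock genes measured, Per1 among them, 10 were called lower in Experiment 2 and 0 higher, where 19.9% of all genes were called lower and 20.6% higher. The list median was -0.50, beside -0.01 for all genes. Of 20 immediate early genes 10 were called lower and 1 higher. Their sum in Experiment 1 was 1194 CPM at 0 h, but 534.5 and 503.2 CPM at 17 and 30 h. In Experiment 2 without Dox it was 488.5, 525.0 and 582.6 CPM, so only the 0 h library of Experiment 1 stood apart. Rora, an activator of the clock, stood at -2.06, its repressors Cry1 at -1.68 and Nr1d1 at -1.63, and Bhlhe40 at -1.28, all called by edgeR. DESeq2 called 6 of the 19 lower. In edgeR 9 were called without Experiment 1 at 0 h, 5 without its 17 h library and 6 of 18 without Experiment 2 at 19 h. Of 25 glucocorticoid targets 6 were higher and 7 lower, with Klf9, a Krüppel-like factor gene, at -1.59 and Dusp1, a phosphatase gene that restrains MAP kinases, at 2.20.

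Tsc22d3 varied with the same difference between experiments. Its closest genes over the 9 libraries, of 8756 ranked by Pearson's r of log2 CPM, were Rpa1, Eno2, Nptxr, Sec24a and Slc35f5, all at 0.96, and Per1 stood at 0.91. Its r with Fkbp5 was 0.64 and with Hsd11b1 0.49. Among single cells its highest median r over the 9 libraries was 0.0767, with Fdps, followed by Chac1 (0.0555), Srsf3 (0.0507), Ldha (0.0501) and Slc6a9 (0.0496), values too low to read as more than a description.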

How the data were processed

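Single-cell RNA was measured in 9 libraries. The authors deposited raw UMI counts for each barcode and gene. Per the file headers, Cell Ranger 3.1.0 (31054 features) wrote Experiment 1 and 6.0.1 (32286 features) Experiment 2, on mm10 per the submitters' processing notes. Features were joined by gene ID, 30407 shared, 597 of them with a changed symbol. Kept cells had 5000 UMIs or more and no more than 10% mitochondrial UMIs, doublets were not removed, and at most 0.51% of barcodes were shared between libraries.

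Counts were summed per library and tested with edgeR 4.0.16 (R 4.3.3; filterByExpr, TMM, quasi-likelihood F test, Benjamini-Hochberg, adjusted p under 0.05). For SAG and for its response with Dox, 1 model of condition plus experiment was fitted to the 9 libraries; for Dox, the 6 of Experiment 2 entered, and for the experiments, the 6 without Dox, each with time. Each had 2 residual degrees of freedom. A Dox condition has 1 library, whose spread is taken from the other conditions. The labels give the experiment as the shared batch; its deviations correlated between conditions at 0.681 to 0.788 over 14354 genes. All 7 genes passed the filter. CPM used TMM factors. The 17 h and 19 h libraries were taken as 1 time. Alternatives used DESeq2 1.42.0, other scalings, filters and models, and each library left out. For Dox and for the experiments, leaving out 1 library of a time leaves its partner without weight in the difference. The 2 runs of a time are therefore nearly the same check. Gene positions are GRCm38. The genes and lists were chosen with earlier results of these data known. Named list genes are the called genes, up to 4 by p, or the 2 of lowest p where none was called, among those reaching 1 CPM; H6pd, Cyp24a1 and single library levels were chosen after values were seen. For 1 list gene that the rule names, values are not reported here. The test was checked on simulated counts.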

Additional observations from a re-analysis of the deposited data

Results flagged for a closer look

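Vdr stood out because its 30 h change ran in opposite directions in the experiments, at both times with SAG: on the log2 scale it was 2.85 higher in Experiment 2 without Dox (1.66) than in Experiment 1 (-1.19). Fkbp5 stood out in the same way, the other way round, with a difference of -0.41 (-0.11 in Experiment 2 without Dox and 0.31 in Experiment 1). Its fall in Experiment 2 was small: the counting intervals at 0 h (10.97 to 12.74 CPM) and 30 h (10.37 to 11.65 CPM) overlapped. Scaled by library totals alone, Fkbp5 rose there, at 8.21, 9.13 and 10.85 CPM at 0, 19 and 30 h without Dox. The opposite direction of Fkbp5 thus depends on the scaling. Each value compares 1 library with 1 library, and the difference between the experiments was not tested.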

How the results depend on the processing

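Counts of the 7 genes called at 30 h went from 2 to 1 with DESeq2, 1 with RLE factors and 0 without the replicate block, and at 17 to 19 h from 1 to 0 with DESeq2, RLE factors, no replicate block or a model of 3 arms with shared SAG times. The Dox difference of the SAG response called 2 at 30 h and 2 at 17 to 19 h with no filter, and 2 and 2 with cells of up to 20% mitochondrial UMIs, from 0 each. Dox called 1 with DESeq2 and 6 with library totals only, and the experiments 5 with library totals, 4 with no filter and 5 with up to 20% mitochondrial UMIs. Hsd11b1 stood at 2.26 without the replicate block at 30 h, at 2.44 (DESeq2), 2.41 (RLE), 2.53 (no replicate block) and 2.58 (3 arms) at 17 to 19 h, all not called, and at -0.27 without the replicate block from 17 to 19 h to 30 h. With library totals it passed the test for Dox (0.63) and for the experiments (-1.25), the latter also with no filter (-0.77) and up to 20% mitochondrial UMIs (-1.56). Its Gli1 split was 0.325 points at 5000 UMIs and 0.0907 points in cells of 1% to 10% mitochondrial UMIs.

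Signs of single genes turned at 30 h for Tsc22d3 (0.08 library totals, 0.09 3 arms), Per1 (-0.02, 20% mitochondrial), Vdr (-0.11, no replicate block) and Fkbp5 (-0.00, 3 arms); at 17 to 19 h for Vdr (0.14 with 20% mitochondrial, 0.49 with 3 arms) and Tsc22d3 (0.01, 3 arms); from 17 to 19 h to 30 h for Tsc22d3 (0.12 library totals, 0.09 3 arms); with library totals for Tsc22d3 with Dox (0.38), and between experiments for Nr3c1 (-0.18) and Usp2 (-0.23). With library totals the median of all genes stood at 0.21 at 30 h, 0.41 with Dox and -0.47 between experiments, against -0.01, 0.01 and -0.01 with TMM; for the other settings the cause was not tested.

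Leaving out 1 library at a time, the 7 genes called ranged from 0 to 3 at 30 h, 0 to 2 at 17 to 19 h, 0 to 2 for both Dox differences of the SAG response and 1 to 4 between experiments. Hsd11b1 ranged from 0.91 to 3.77 at 30 h, 1.23 to 3.28 at 17 to 19 h, -1.48 to 1.39 between those times and -1.84 to -0.00 between experiments, and its Gli1 split from -0.281 to 0.410 points. Of the others, at 30 h Fkbp5 ranged from -0.17 to 0.37, Per1 from -0.03 to 0.40, Tsc22d3 from -0.48 to 0.19 and Vdr from -0.88 to 1.42; at 17 to 19 h Fkbp5 from -0.01 to 0.53, Tsc22d3 from -0.30 to 0.12 and Vdr from -1.21 to 0.98. Between those times Fkbp5 ranged from -0.40 to 0.07, Nr3c1 from -0.12 to 0.24, Tsc22d3 from -0.39 to 0.27, Usp2 from -0.31 to 0.83 and Vdr from -0.78 to 1.35. The 30 h Dox difference ranged from -0.54 to 0.01 for Fkbp5 and -0.06 to 0.26 for Nr3c1, Dox for Tsc22d3 from -0.09 to 0.09, and the experiments for Usp2 from -0.16 to 0.49.

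Over all genes, 64 were called at 30 h and 16 at 17 to 19 h, against 12 and 7 with DESeq2, 0 and 0 without the replicate block and 785 and 3 with 3 arms. Of 186 alternatives of the main results 137 kept their direction and side of the threshold. At 0 h Hsd11b1 rests on 5 to 27 UMIs per library, which limits its ratios.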
